A study of Mus musculus with 9 samples.

Results

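The genes described here encode the contractile apparatus, and the question was how many of them have binding of the chromatin remodeller CHD7 in their regulatory domains in cardiac progenitor cells. The list holds 41 genes of the sarcomere, its anchoring structures and the smooth muscle and nonmuscle contractile machinery, with the tropomyosins left out, and all 41 were found among the 21911 protein-coding genes of the annotation. The cells were wild-type mouse embryonic stem cells, derived from C57BL6 mice, that had been differentiated towards cardiomyocytes and were collected at day 5, the day after they had been plated at the mesoderm stage. CUT&RUN, in which an antibody directs a nuclease to a chromatin protein and the released DNA is sequenced, was carried out with anti-CHD7, with an IgG control and on input without antibody, with 3 biological replicates in each of the 3 groups and 9 libraries in all. The values used here are the 3761 regions of a single peak list for the 3 anti-CHD7 replicates, which gives a position for each peak and no height or read count. The strength of a peak and the spread between replicates are therefore unknown, and the Wilson 95% confidence intervals below cover counting error only. They take genes or peaks as independent, although some genes are neighbours and some peaks belong to the same gene. The list has no expression values, so the cell type was not checked against marker genes.

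In striated muscle, bipolar thick filaments of myosin slide along thin filaments of actin, and the thin filaments are anchored at the Z-disc. Titin runs from the Z-disc to the M-band and holds the thick filament in place, and calcium starts contraction by binding to troponin on the thin filament. Smooth muscle and nonmuscle cells use related myosins and actins without sarcomeres, and early heart cells express several of these genes, among them smooth muscle alpha-actin, before the sarcomere is complete.

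A gene was said to have a peak when the midpoint of at least 1 peak lay in its regulatory domain. This domain ran from 5 kb upstream to 1 kb downstream of the transcription start site (TSS) and was lengthened on either side until it met the basal domain of a neighbour, by at most 1 Mb. By this rule 9 of the 41 genes (22.0%, 95% CI 12.0 to 36.7) had a CHD7 peak, beside 22.7% of all genes. They were Mybpc3, Actn2, Ldb3, Pdlim5, Xirp1, Myh10, Myh11, Myl9 and Acta2. Long domains hold more peaks, and the share of all genes with a peak rose from 5.75% in the shortest of 10 classes of domain length to 45.0% in the ninth. The contractile genes had domains of ordinary length, with a median of 86544 bp beside 90168 bp for all genes. Summing the shares of their length classes gave 8.84 genes, so that the observed 9 were 1.02 times the like-length number. As a whole, the list was at the background. With only the peaks wider than the median the ratio was 1.58, with 19.5% of the 41 genes and 13% of all genes having a peak. The confidence interval covers counting error and does not measure this change of peak set, which was not tested.

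The groups within the list differed in their counts. All 4 smooth muscle and nonmuscle genes had a peak (95% CI 51 to 100%), where genes of like domain length gave 1.17. Of 15 other smooth muscle and nonmuscle genes outside the list, 3 had a peak (20%, 95% CI 7.05 to 45.2), where like length gave 3.25. The share of the 4 therefore cannot be taken to hold for their class. The median distance of these 15 genes to the nearest peak was 66541 bp, beside 165942 bp for all genes. More than 100 kb from a peak were 7 of the 15 (46.7%), beside 63.2% of all genes. With so few genes, neither of these differences was tested. Of the 37 genes of the sarcomere, the Z-disc and the intermediate filaments, 5 had a peak (13.5%, 95% CI 5.91 to 28), where genes of like length gave 7.67, or 20.7%. This last share lies inside the interval of the 37 genes. The 4 smooth muscle and nonmuscle genes also held 9 of the 15 gene and peak pairs of the list, 5 of them at Myh10 alone. Their domains were longer, with a median of 186201 bp, beside 83056 bp for the other 37. The groups follow the known roles of the proteins, but setting the 4 genes against the other 37 was chosen after seeing the data. The 15 were also set apart after seeing the data. The smaller group has few genes, and no test of the difference was made.

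**Figure D1:**
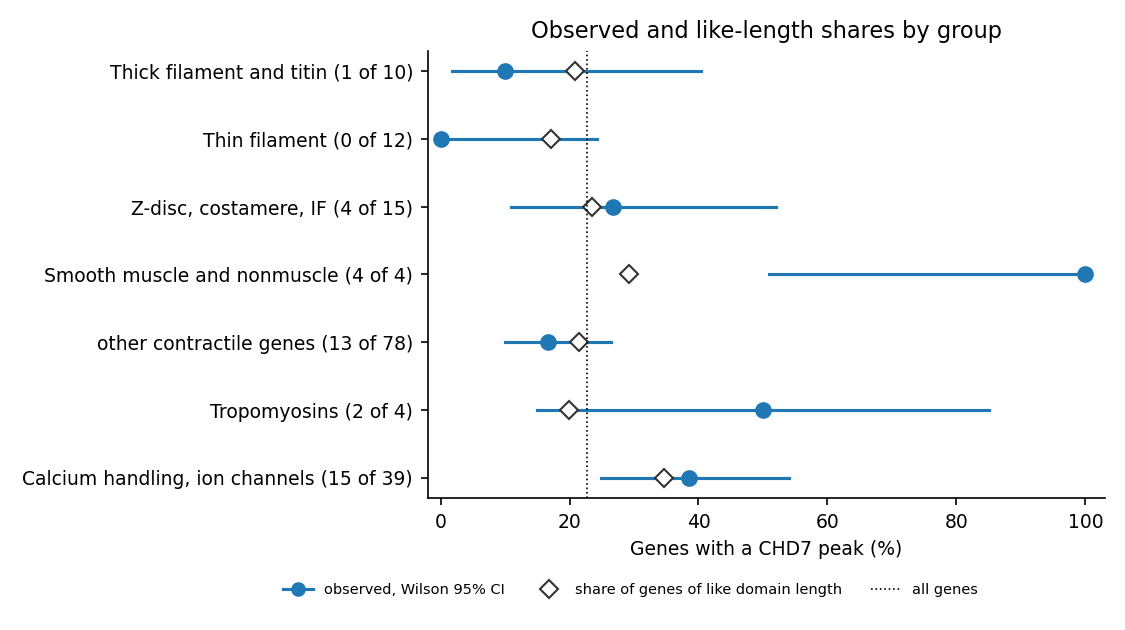
Share of genes with a CHD7 peak (%, horizontal axis) in the 4 role groups of the contractile genes, in 78 other contractile genes, in the tropomyosins and in genes of calcium handling and ion channels. Circles are observed shares with Wilson 95% confidence intervals, diamonds the share of all genes of like domain length, and the dotted line is the share of all genes (22.7%); the smooth muscle and nonmuscle genes are at 100% and the thin filament genes at 0%.

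The thick filament group, with titin, had 1 gene with a peak among 10, where genes of like length gave 2.08. This gene was Mybpc3, which encodes cardiac myosin-binding protein C, a regulator of cross-bridge cycling. Mybpc3 had 2 peaks. The first, at chr2:91123425-91124341 (GRCm38) and 917 bp wide, had its midpoint in intron 12 of the 35-exon principal transcript of Mybpc3, 5739 bp downstream of the TSS. It was shared with Madd, whose TSS was 59935 bp away. The second, at chr2:91101191-91102234 and 1044 bp wide, lay 16431 bp upstream of Mybpc3 in intron 2 of Spi1, the gene of the haematopoietic transcription factor PU.1, and its midpoint was 5617 bp downstream of the Spi1 TSS used for the domain. The peak inside the gene is thus the nearer to Mybpc3, and the upstream one is closer to its neighbour.

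The central 200 bases of the Mybpc3 peak with its midpoint in intron 12 are shown, from chr2:91123783-91123982 on the plus strand of GRCm38.p6, with capitals marking a match to the NKX2-5 motif TNAAGTG. The window runs from intron 12 into the coding sequence of exon 13, and the match is in the exon. NKX2-5 is a homeodomain factor of the cardiac lineage.
Mybpc3 intron 12 and exon 13: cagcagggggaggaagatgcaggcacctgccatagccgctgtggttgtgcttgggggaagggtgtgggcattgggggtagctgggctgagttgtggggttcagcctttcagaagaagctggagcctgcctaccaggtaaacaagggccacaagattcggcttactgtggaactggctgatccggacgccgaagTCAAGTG

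The other 9 genes of this group had no peak in their domains. Titin (Ttn), the giant spring of the sarcomere, had a domain of 491547 bp, in a length class in which 45.0% of all genes had a peak, and the nearest peak lay 242654 bp from its TSS. The M-band protein gene Myom2 had a domain of 1006583 bp, 11.2 times the median of all genes, with the nearest peak at 206457 bp, and its relative Myom1 a domain of 171423 bp with the nearest peak at 192680 bp, or 91297 bp from the nearest TSS of any Myom1 transcript. The myosin heavy chain genes Myh6 (alpha) and Myh7 (beta) are tandem neighbours, with TSSs 27985 bp apart, and count as 1 locus rather than as independent observations; both had short domains, of 34672 and 32521 bp, and their nearest peaks were 348586 and 376571 bp away. The ventricular light chain genes Myl2 and Myl3 had their nearest peaks at 108663 and 185558 bp. For the light chains of the embryonic and atrial heart, Myl4 and Myl7, the distances were 258198 and 507501 bp. All 6 of these myosin genes, 2 of them in 1 locus, were more than 100 kb from a CHD7 peak, as were 63.2% of all genes.

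None of the 12 thin filament genes had a peak (95% CI 0 to 24.2%), where genes of like domain length gave 2.06. The interval takes the 12 as independent, although Tnnt1 and Tnni3, Tnni1 and Tnnt2, and Tnni2 and Tnnt3 are neighbours. The cardiac actin gene Actc1 had a domain of 155720 bp with the nearest peak at 267678 bp. For cardiac troponin T, Tnnt2, the domain was 98610 bp and the nearest peak 396278 bp away. Nebl, which encodes the thin filament anchoring protein nebulette, had the longest domain of all 41 genes (1264916 bp, 14.0 times the median) and no peak within 337340 bp. Lmod2 and Tmod1 encode proteins that act at the pointed end of the actin filament, leiomodin in elongating it and tropomodulin in capping it. The nearest peak to Lmod2 was 2682895 bp away, the greatest distance among the 41 genes, with a domain of 106938 bp, and that to Tmod1 was 214537 bp away, with a domain of 160380 bp.

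The remaining thin filament genes had domains shorter than the median. Tnni3 (cardiac troponin I) and Tnnt1 (slow skeletal troponin T) are 6553 bp apart, with nearest peaks at 217299 and 223852 bp. Tnni1, of slow skeletal troponin I, lies 36521 bp from Tnnt2, and its nearest peak was at 432799 bp. A peak did lie closer to 4 others, in the domains of other genes. These were Tnni2 (fast skeletal troponin I), at 9783 bp, where the peak was associated with Syt8; Acta1 (skeletal alpha-actin), at 31258 bp, with Ccsap; Tnnc1 (the troponin C of slow and cardiac muscle), at 46853 bp, with Nt5dc2 and Stab1; and Tnnt3 (fast skeletal troponin T), at 66289 bp, with Syt8 again. Tnni2 and Tnnt3 are 56506 bp apart and share this nearest peak.

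In the Z-disc, costamere and intermediate filament group 4 of 15 genes had a peak, where genes of like length gave 3.53. Each of the 4 had 1 peak. Actn2 encodes alpha-actinin, which cross-links actin filaments at the Z-disc. Its peak, at chr13:12352272-12353295 (1024 bp), was intergenic and 12024 bp upstream of the TSS, nearer than the TSS of Heatr1, from which it was 42587 bp away on the other side. Pdlim5 encodes a PDZ and LIM domain protein that binds alpha-actinin, and its peak, at chr3:142434316-142435146 (831 bp), was intergenic and 39038 bp upstream, with Gbp5 as the sharing gene. Ldb3 encodes another PDZ and LIM protein of the Z-disc, cypher. Its peak, at chr14:34539864-34541027 (1164 bp), had its midpoint in intron 12 of 14 exons, 48218 bp downstream of the TSS, and was closer to the TSS of 9230112D13Rik. Xirp1 encodes an actin-binding Xin-repeat protein, and its peak, at chr9:120001882-120002377 (496 bp), lay 21468 bp downstream of its TSS, past the end of the gene, within the span annotated to a long transcript of Cx3cr1. Csrnp1 shared it.

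The central 200 bases of these 4 peaks, on the plus strand of GRCm38.p6, show what lay under the middle of each. They come from chr13:12352684-12352883, chr3:142434631-142434830, chr14:34540346-34540545 and chr9:120002030-120002229, in this order, and hold no match to any of the 8 motifs searched, so that nothing is in capitals.
Actn2 upstream: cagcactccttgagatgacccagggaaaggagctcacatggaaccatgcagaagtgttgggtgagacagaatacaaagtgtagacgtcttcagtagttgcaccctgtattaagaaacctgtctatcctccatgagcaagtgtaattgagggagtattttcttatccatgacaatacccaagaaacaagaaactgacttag
Pdlim5 upstream: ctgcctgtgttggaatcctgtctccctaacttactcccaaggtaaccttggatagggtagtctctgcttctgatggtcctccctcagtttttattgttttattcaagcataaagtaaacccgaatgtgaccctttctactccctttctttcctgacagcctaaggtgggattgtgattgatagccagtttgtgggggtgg
Ldb3 intron: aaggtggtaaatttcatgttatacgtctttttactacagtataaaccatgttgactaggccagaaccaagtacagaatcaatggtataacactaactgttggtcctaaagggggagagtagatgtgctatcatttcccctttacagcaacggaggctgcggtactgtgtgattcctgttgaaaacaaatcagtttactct
Xirp1 downstream: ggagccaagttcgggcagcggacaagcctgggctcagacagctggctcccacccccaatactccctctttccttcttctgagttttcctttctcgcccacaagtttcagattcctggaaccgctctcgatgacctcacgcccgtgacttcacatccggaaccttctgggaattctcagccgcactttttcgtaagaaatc

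Of the 11 genes of this group with no peak, 5 had domains longer than the median. Xirp2, the relative of Xirp1, had a domain of 674531 bp and its nearest peak 2244079 bp away. Pdlim3, the relative of Pdlim5, had a domain of 420701 bp and its nearest peak 1696427 bp away. In both of these pairs of relatives, 1 gene had a peak and the other was more than 1 Mb from any. Ankrd1, a stretch-responsive ankyrin repeat protein that binds titin, had a domain of 258578 bp and its nearest peak at 678617 bp. For Myoz2, a calcineurin-binding Z-disc protein, these values were 245586 and 473342 bp, and for Nexn, which encodes the actin-binding nexilin, 127986 and 208554 bp.

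The other 6 had domains at or below the median, with that of Csrp3 (90039 bp) close to it. Cryab, which encodes the small heat shock protein alpha-B-crystallin, had only the basal domain of 6000 bp, and a peak associated with Dixdc1 and 2310030G06Rik lay 11645 bp from its TSS. Desmin (Des), the muscle intermediate filament protein, had a peak at 33613 bp in the domains of Speg and Gmppa, and filamin C (Flnc), an actin cross-linker, one at 40745 bp in those of Atp6v1fnb and Kcp. The nearest peaks were further away for Csrp3 (muscle LIM protein, 208011 bp), Tcap (the titin cap protein telethonin, 218371 bp) and the actin-associated Synpo2l (325112 bp). The nearest peak to Synpo2l was associated with Vcl, the vinculin gene.

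Of the 4 smooth muscle and nonmuscle genes in the list, 2 had their nearest peak within 5 kb of the TSS, as did 4.09% of all genes. Acta2 encodes smooth muscle alpha-actin. Its peak, at chr19:34251917-34253199 and 1283 bp wide, had its midpoint 3032 bp downstream of the TSS, in the untranslated start of exon 2 of 9. From the nearest TSS of any Acta2 transcript the distance was 1672 bp. Stambpl1, which shared the peak, had its TSS 60329 bp away.

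Myh11 encodes the smooth muscle myosin heavy chain and had 2 peaks inside the gene. One, at chr16:14287759-14288341 (583 bp), was in intron 1, 3315 bp downstream of the TSS. The other, at chr16:14221395-14222268 (874 bp), had its midpoint in the coding sequence of exon 21 of 42, 69533 bp downstream. Both were shared with Nde1, whose TSS was 124775 bp from the first and 58557 bp from the second, the nearer of the 2 genes in the second case.

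Myh10 encodes nonmuscle myosin heavy chain IIB, a motor that the developing heart needs, and with 5 peaks it had the most of the 41 genes. Of these, 4 were intergenic and upstream, between the gene and Ccdc42. The nearest, at chr11:68657105-68657801 (697 bp), was 34462 bp upstream of Myh10, and the next ones were 68495 and 78189 bp upstream, with the last at 88946 bp. The 3 outer peaks lay close together, with gaps of 10241 and 8860 bp, and all 3 were nearer to the TSS of Ccdc42 than to that of Myh10. The fifth, at chr11:68814878-68815845 (968 bp), had its midpoint in the untranslated part of the last exon, number 41, and was 123447 bp downstream of the Myh10 TSS and 37773 bp from that of Ndel1. It was also 1000 bp from the start of another annotated Myh10 transcript.

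Myl9 encodes a regulatory light chain of smooth muscle and nonmuscle myosin. Its peak was remote, 122033 bp upstream in intron 1 of Dlgap4, and 39682 bp from the Dlgap4 TSS used for the domain. At 2255 bp it was the widest of the 15, wider than 98.4% of all peaks. It was assigned to Myl9 by the extension of a domain of 220302 bp, and Dlgap4 was the closer gene.

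Sequences under the peaks of Acta2, Myh11 and Myh10 are given on the plus strand of GRCm38.p6. They are the central 200 bases of the Myh11 intron peak (chr16:14287950-14288149), of the Myh11 exon peak (chr16:14221732-14221931) and of the nearest Myh10 upstream peak (chr11:68657353-68657552), and the first 96 bases of the Acta2 window, which stop where the UTR begins (chr19:34252458-34252553); the rest of that window is not shown. Capitals mark a match to the ISL1 motif CTAATNG in the Myh11 exon peak, which lies in the adjoining intron 20, and a match to the GATA motif AGATAA in the Myh10 upstream peak, both on the minus strand, so that the printed letters are the reverse complement.
Acta2 exon peak: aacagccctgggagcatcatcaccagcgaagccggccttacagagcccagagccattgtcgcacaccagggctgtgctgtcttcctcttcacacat
Myh11 intron peak: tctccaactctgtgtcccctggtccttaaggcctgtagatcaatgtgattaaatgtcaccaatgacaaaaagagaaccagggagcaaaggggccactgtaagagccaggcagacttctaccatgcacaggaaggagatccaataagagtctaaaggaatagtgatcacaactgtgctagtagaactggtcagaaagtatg
Myh11 exon peak: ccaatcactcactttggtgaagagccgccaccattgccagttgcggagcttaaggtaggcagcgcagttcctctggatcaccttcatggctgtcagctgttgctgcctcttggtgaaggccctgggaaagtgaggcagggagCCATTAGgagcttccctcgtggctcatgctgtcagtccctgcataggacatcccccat
Myh10 upstream: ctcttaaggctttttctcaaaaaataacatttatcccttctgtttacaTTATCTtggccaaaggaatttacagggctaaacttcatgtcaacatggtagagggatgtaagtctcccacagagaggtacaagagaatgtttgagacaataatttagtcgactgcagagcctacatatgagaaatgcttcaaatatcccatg

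**Figure D2:**
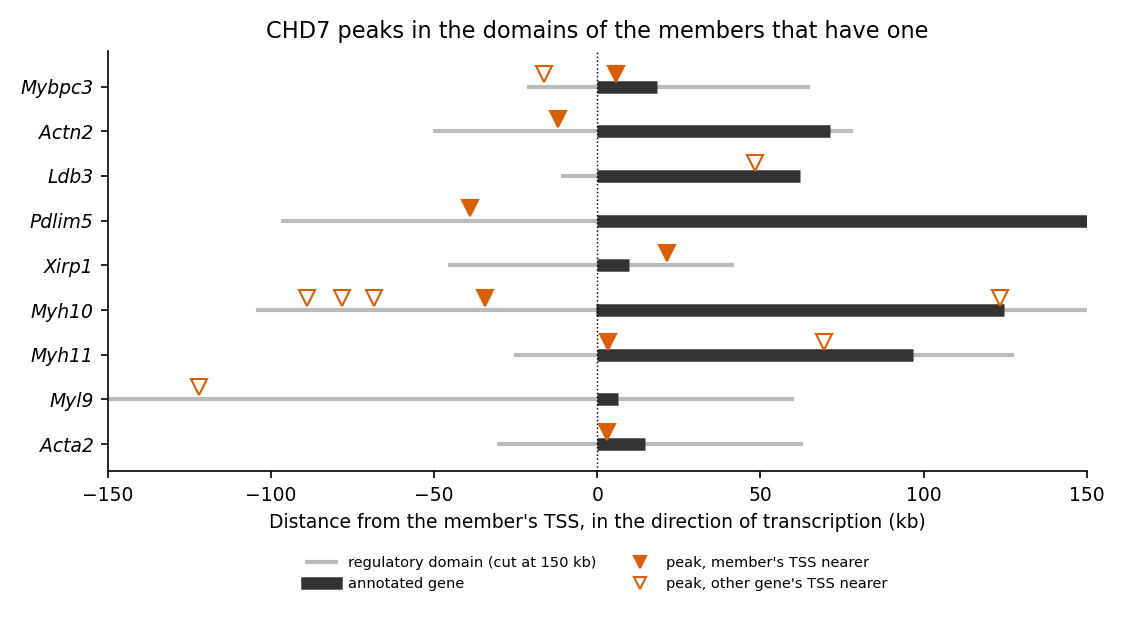
Positions of the 15 peaks (triangles) relative to the TSS (kb, horizontal axis, in the direction of transcription) for the 9 genes with a peak. Grey lines are regulatory domains, drawn up to 150 kb, black bars are the annotated genes, and filled triangles mark the 7 peaks for which the contractile gene had a nearer TSS than the gene sharing the peak.

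Across the list no gene had a peak in its basal domain (0 of 41, 95% CI 0 to 8.57%), beside 3.17% of all genes. This domain takes in the promoter at the 1 TSS used per gene. The nearest peak was that of Acta2, 3032 bp from the TSS used. From any annotated TSS, the nearest peaks were 1000 bp away for Myh10 and 1672 bp for Acta2. Within 5 kb of the TSS used there were peaks at 2 genes (4.88%, beside 4.09% of all genes), Acta2 and Myh11. At 10 kb the count was 4 (9.76%, beside 6.32%), with Mybpc3 and Tnni2 added. Within 50 kb, a count added after seeing the data, there were peaks at 14 genes (34.1%, 95% CI 21.6 to 49.5, beside 22.3%), and within 100 kb at 15 (36.6%, beside 36.8%). These counts need no domains, and 6 of the 14 genes within 50 kb (Tnni2, Tnnc1, Acta1, Des, Cryab and Flnc) had no peak in their domains, which ended at the basal domain of a neighbour before the peak. This share, 42.9%, was close to the 40.2% among all genes with a peak within 50 kb. The share at 50 kb was above that of all genes, with the latter inside the confidence interval, and at 100 kb the shares were alike.

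A peak inside the annotated gene was found for 5 of the 41 (12.2%, 95% CI 5.32 to 25.5, beside 8.09% of all genes), namely Mybpc3, Ldb3, Myh10, Myh11 and Acta2. More than 1 peak in the domain was found for 3 (7.32%, beside 5.88%), Myh10, Myh11 and Mybpc3. At the other end, 3 genes had no peak within 1 Mb, Lmod2, Xirp2 and Pdlim3, and 12.4% of all genes were as far from one. The median distance to the nearest peak was 208011 bp for the 41 genes and 165942 bp for all genes. It was 18888 bp for the 4 smooth muscle and nonmuscle genes and 214537 bp for the other 37. For the 15 smooth muscle and nonmuscle genes outside the list it was 66541 bp.

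**Figure D3:**
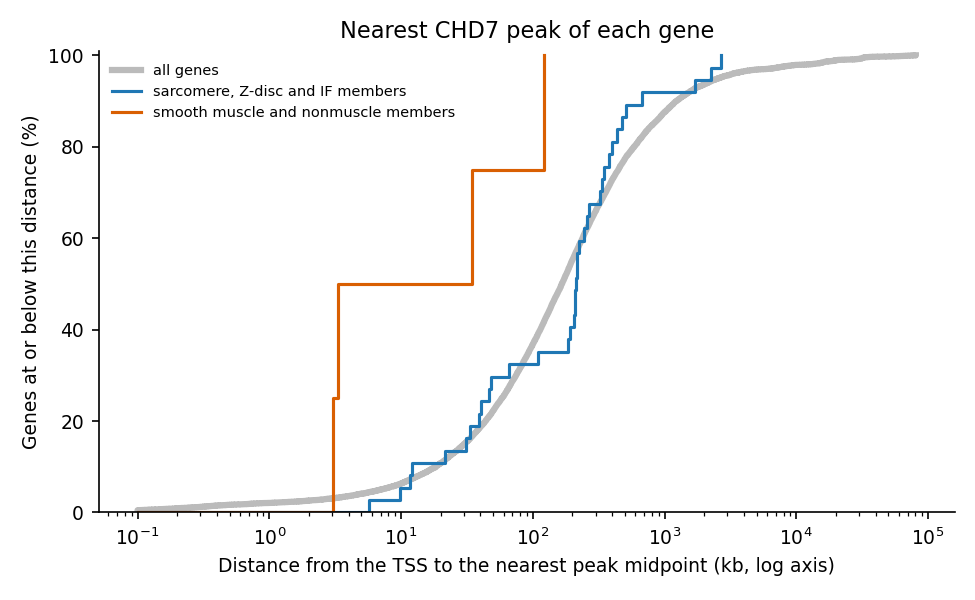
Cumulative share of genes (%, vertical axis) by distance from the TSS to the nearest peak midpoint (kb, log axis) for all genes, for the 37 genes of the sarcomere, Z-disc and intermediate filaments (IF) and for the 4 smooth muscle and nonmuscle genes. The 37 genes run close to all genes, with medians of 214537 and 165942 bp, and the 4 lie at shorter distances, with a median of 18888 bp.

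The genes were also counted by domain length. Of the 41 genes, 19 had domains longer than the median of all genes, and 6 of these had a peak (31.6%), beside 34.3% of all genes with such domains. The 6 were the 4 smooth muscle and nonmuscle genes, Actn2 and Pdlim5. Among the 15 sarcomere, Z-disc and intermediate filament genes with long domains 2 had a peak (13.3%, 95% CI 3.74 to 37.9), where genes of like length gave 5.15, a share inside this interval. No smooth muscle or nonmuscle gene had a domain at or below the median, so the groups were not compared there. With such shorter domains 3 of 22 had one (13.6%), beside 11.2% of all genes, and these were Mybpc3, Ldb3 and Xirp1. The 3 genes of the longest length class, Nebl, Myom2 and Xirp2, had none, and 44.1% of all genes in that class had one.

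**Figure D4:**
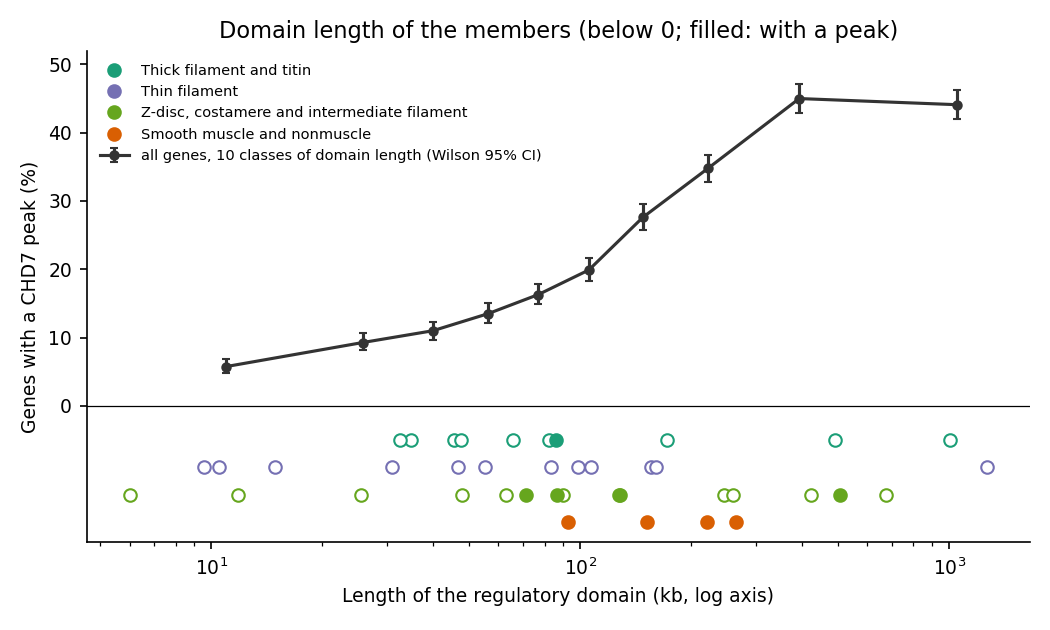
Share of all genes with a CHD7 peak (%, vertical axis, with Wilson 95% confidence intervals) in 10 classes of regulatory domain length (kb, log axis). Each of the 41 contractile genes is drawn below the zero line at its domain length, by role and filled where it had a peak; the 4 smooth muscle and nonmuscle genes are filled, and Nebl, Myom2 and Xirp2 at the right are open.

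The 15 gene and peak pairs came from 15 different peaks, and every peak was shared with 1 further gene, as in 89.5% of all pairs. The contractile gene had the nearer TSS in 7 of the 15 pairs (46.7%, where 55.1% of all pairs join a peak to the nearest or only gene), and these were in 7 genes; for Ldb3 and Myl9 the other gene was the nearer. The absolute distance ranged from 3032 to 123447 bp with a median of 39038 bp, beside 57406 bp over all 6818 pairs. Of the 15 pairs 12 were more than 10 kb from the TSS (80%, beside 81.5% of all pairs), and 8 were upstream (53.3%, beside 44% of all pairs). The midpoint was intergenic in 6 pairs (40%, beside 45.3%) and inside the contractile gene itself in 6 (40%, 95% CI 19.8 to 64.3, beside 28.1% of all pairs inside the gene of the pair). The peaks were 496 to 2255 bp wide with a median of 917 bp, beside 703 bp for all peaks, and 10 of the 15 were wider than this. Their GC content ranged from 42.4 to 57.9% with a median of 50%, beside 47.5%.

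Short motifs of cardiac and muscle transcription factors were looked for in the central 200 bp of each peak, on either strand. A match describes the letters and is not evidence of binding by the factor. Among the 15 peaks, 7 held at least 1 match (46.7%, beside 49.5% of all peaks). NKX2-5 (TNAAGTG) matched in 2, both of Mybpc3, beside 11.4% of all peaks. ISL1 (CTAATNG) matched in 2, of Myl9 and Myh11, beside 5.13%, and the T-box motif (AGGTGT) in 2, both of Myh10, beside 11.3%. The GATA motif (AGATAA) matched in 1, the nearest upstream peak of Myh10, beside 11.8%. The TEAD motif (CATTCC) was in none of the windows, beside 11.8% of all peaks. The motif of SP and KLF zinc finger factors (GGGCGG) was in none either, beside 8.69%. The same held for the MEF2 motif (1.89% of all peaks) and for the CArG box bound by serum response factor (0.904%). With 15 windows, each of these counts has an interval that takes in the share of all peaks. The intervals take the 15 peaks as independent, although 5 belong to Myh10 and 2 each to Myh11 and Mybpc3.

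Over the whole width of the peaks, 14 of the 15 held a match to 1 or more of the motifs other than MEF2 (93.3%, beside 87.6% of all peaks), and no matches to different motifs overlapped. The peak without one was that in intron 1 of Myh11. The Myh10 peak 68495 bp upstream was the only one with a CArG box. It also held matches to GATA, TEAD and ISL1, and the CArG box is shown with 10 bases on either side, from chr11:68623692-68623721 on the plus strand.
Myh10 CArG box: tatcattttgCCATATATGGtcaccgagag

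**Figure D5:**
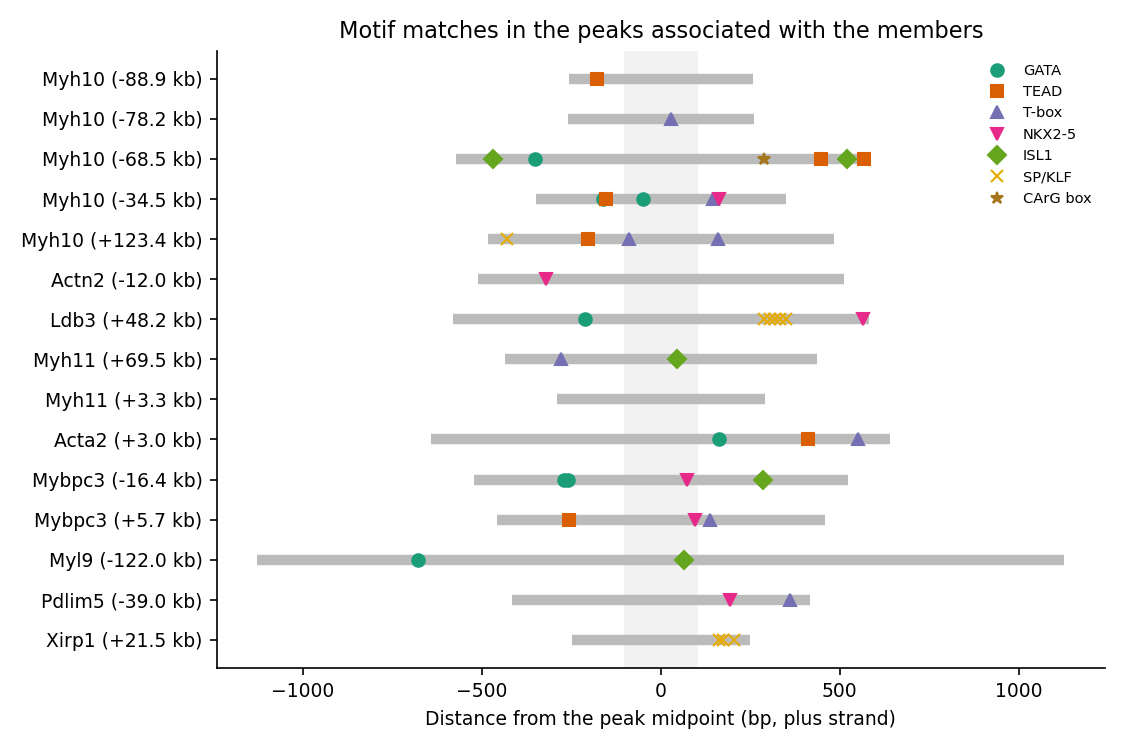
Matches to 7 of the motifs (symbols, without MEF2) along the 15 peaks (grey bars, to scale), by distance from the peak midpoint (bp, plus strand); rows are named by gene and by distance from its TSS, and the shaded band is the central 200 bp. Matches fall along the length of the peaks, 7 peaks have one inside the band, and the intron 1 peak of Myh11 has none.

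The promoters of the same genes, whose basal domains held no CHD7 peak, were searched for the same motifs. RefSeq promoter sequences of GRCm38.p6, from 250 bases before to 50 bases after the start, were at hand for 33 of the 41 genes, all but Myh11, Tnnt3, Tnni2, Myom2, Tcap, Xirp1, Nexn and Cryab, and for 16522 genes in all. The CArG box was found in 7 of 33 (21.2%, 95% CI 10.7 to 37.8), beside 1.51% of all promoters. The TEAD motif was found in 14 (42.4%, 95% CI 27.2 to 59.2), beside 13.0%, and the MEF2 motif in 5 (15.2%, 95% CI 6.65 to 30.9), beside 2.83%. These are motifs of factors known to act on muscle genes, and their shares were above the background of all promoters.

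The other motifs were above or below the background, which lay inside the confidence interval of each. T-box matches were found in 6 of the 33 promoters (18.2%, beside 12.8%), GATA in 3 (9.09%, beside 9.56%), ISL1 in 2 (6.06%, beside 5.1%), NKX2-5 in 1 (3.03%, beside 10.6%) and SP/KLF in 11 (33.3%, beside 48.5%). The 7 genes with a CArG box were Actc1, Acta1, Myl3, Myl7, Myl9, Myom1 and Ldb3. Of these, Myl9 and Ldb3 had a CHD7 peak in their domains and the other 5 did not. Among the 41 genes 9 had such a peak (22.0%), beside 22.7% of all genes. The CArG boxes of 2 actins and 2 light chains are shown with 15 bases on either side on the strand of the gene. They come from chr2:114052898-114052937 (minus), chr8:123894824-123894863 (minus), chr11:5898819-5898858 (minus) and chr2:156775288-156775327 (plus). The nearest CHD7 peaks to these genes were 267678, 31258, 507501 and 122033 bp from the TSS.
Actc1 promoter: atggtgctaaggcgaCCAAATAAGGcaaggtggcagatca
Acta1 promoter: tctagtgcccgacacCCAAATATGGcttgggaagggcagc
Myl7 promoter: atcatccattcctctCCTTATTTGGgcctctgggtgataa
Myl9 promoter: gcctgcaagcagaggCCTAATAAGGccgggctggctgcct

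A further 78 genes of the contractile apparatus, other than the 41, were counted in the same way. A peak was found for 13 of them (16.7%, 95% CI 10 to 26.5), where genes of like length gave 16.7 genes. By role, 15 of the 78 were assigned to smooth muscle and nonmuscle cells, and 3 of these had a peak (20%, 95% CI 7.05 to 45.2), where genes of like length gave 3.25. The 12 without one were Actb, Actg1, Actg2, Tagln, Cnn1, Smtn, Synpo2, Lmod1, Myl6, Myl12a, Myl12b and Myh14. Tln2 and Vcl, which had peaks, were counted with the other 63 genes, so the count of 3 depends on this assignment. With the 4 of the list, 7 of 19 had a peak (36.8%, 95% CI 19.1 to 59), or 1.58 times the 4.42 of like length, whose share of 23.3% lies inside this interval. The gene with the most was Tln2, of the focal adhesion protein talin, with 6 peaks, the nearest 76849 bp from the TSS. Lmod3 had 3, with the nearest at 97445 bp. Myh9, of nonmuscle myosin IIA, and Mylk, of myosin light chain kinase, had 2 each, with the nearest at 66541 and 34828 bp. Mybph, a relative of Mybpc3, had 1 peak, 4384 bp away, and was the only one of the 78 within 5 kb. The others with a peak were Myh13, Neb, Mypn, Pdlim2, Pdlim4, Ankrd23, Cald1 and Vcl.

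Of the 4 tropomyosin genes, which code for the coiled-coil proteins along the thin filament, 2 had a peak, where genes of like length gave 0.795. Tpm1 had 7 peaks, of which the nearest was 2680 bp from the TSS, and 5 of the 7 are among the peaks of Tln2, its neighbour. Tpm3 had 1. Genes of calcium handling and the ion channels of the heart had longer domains, with a median of 272090 bp, and 15 of 39 had a peak (38.5%, 95% CI 24.9 to 54.1), or 1.11 times the 13.5 of like length. Their ratio lay near the 1.02 of the 41 contractile genes, and both intervals take in the like-length share.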

How the data were processed

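CUT&RUN libraries of 3 groups (anti-CHD7, IgG and input, 3 replicates each) were processed by the authors with fastp 0.20.1, BWA 0.7.17.4, JE-Suite, MACS2 2.1.2 and deepTools 3.1.0, per the submitters' processing notes and the study's methods, on mm10. Peaks were called by the authors in each sample against IgG and kept when at least 2 replicates shared them. The deposited values are positions in bp, with no score; the calling threshold is not given in the sources used here, and reads, IgG and input were not analysed here. Positions were read with GENCODE M21 on GRCm38.p6, with 1 TSS per gene by APPRIS level and spliced length. Of several RefSeq promoters the one nearest this TSS was used. Functions were tested on simulated data. MEF2 matches over whole peaks are not reported here.

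All genes were to be named, with values for each peak (up to the 3 nearest) and, without a peak, for domains longer than the median; full accounts were for peaks nearest to or inside a listed gene. Of the 78 other genes, those within 5 kb and the 5 with the most peaks were named. Members and lists were chosen with earlier results of these data known. No chance test was used. Software was samtools 1.23.1 and Python 3.11.15 with pysam 0.24.0, matplotlib 3.10.9, statsmodels 0.14.6, scipy 1.17.1, numpy 2.4.6 and pandas 2.3.3.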

Additional observations from a re-analysis of the deposited data

How the results depend on the processing

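The count of contractile genes with a peak was 9 with the most upstream TSS, with a 500 kb extension, with peaks within 1 kb merged and with any overlap in place of the midpoint. It was 8 with the peaks wider than the median and 7 with each peak given to the single nearest gene. The basal domain alone gave 0 genes, 0 pairs and a ratio of 0, for the 41 genes and for both the 4 smooth muscle and nonmuscle genes and the other 37; this domain is much shorter by construction. The single nearest gene also lowered the pairs from 15 to 7, leaving out the 8 for which the other gene had the nearer TSS. The ratio to the like-length share, 1.02, ran from 0.992 (20 length classes) to 1.58 (wider peaks) under the other alternatives. The last of these is more than 1.5 times the main value, and the counting interval does not measure this change. All 4 smooth muscle and nonmuscle genes had a peak under each rule but the basal domain and the single nearest gene (3). With the 15 like genes outside the list added, the share of smooth muscle and nonmuscle genes with a peak moved from 100% to 36.8%. The other 37 gave 4 or 5 under each but the basal domain. These group counts, the added 15, the counts without Myh10 (8 genes and 10 pairs) and the count within 50 kb of the TSS (14, also from any transcript) were chosen after seeing the data. The median absolute distance over the 15 gene and peak pairs was 34106 bp from the nearest TSS of any transcript. It was 39038 bp from the TSS used for the domain.

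Most motif counts moved with the length searched, as did those of all peaks. In 500 bp, ISL1 stayed at 2 and MEF2 and the CArG box at 0, while GATA matched in 3 of the 15 peaks (20%, beside 25.7% of all peaks), TEAD in 3 (20%, beside 26.2%), T-box in 4 (26.7%, beside 25.6%), NKX2-5 in 4 (26.7%, beside 26.3%) and SP/KLF in 1 (6.67%, beside 16.5%). In the whole peak GATA matched in 6 (40%, beside 36.8%), TEAD in 6 (40%, beside 39.1%), T-box in 7 (46.7%, beside 38%), NKX2-5 in 6 (40%, beside 38.2%), ISL1 in 4 (26.7%, beside 19%), SP/KLF in 3 (20%, beside 23.4%) and the CArG box in 1 (6.67%, beside 3.91%). The confidence intervals of these counts take in the shares of all peaks.

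No paired analysis was possible because the deposited list is a single list for the replicates and gives no value for each of them. For the same reason no replicate was left out. Without scores, a peak near the calling limit and a strong peak count alike.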
